A study of Mus musculus with 16 samples.

Results

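The effect of amyloid transgenes on the hippocampus of 9-month-old mice was described in the 10 of 16 libraries that were low in transcripts of the thalamus, the brain region that lies next to the hippocampus. The 10 were 4 carriers of the transgenes (5xFAD 10 and 5xFAD-Dp16 8, 9 and 11) and 6 non-carriers (WT 2, 7 and 16 and Dp16 3, 5 and 12), compared with the presence of Dp16 as a covariate. WT mice were wild-type C57BL/6J. Dp16 mice carry a duplication of the segment of mouse chromosome 16 that is orthologous to much of human chromosome 21, 5xFAD mice carry transgenes, human APP among them, with familial Alzheimer mutations expressed from the neuronal Thy1 promoter, and 5xFAD-Dp16 mice carry both. All 16 libraries came from 9-month-old animals, and the labels give no treatment. Polyadenylated RNA was read by strand-specific sequencing, and each library is named by its group and the number in its title. The libraries were chosen by their measured thalamus markers. The mean log2 CPM (counts scaled to library size, by TMM) of that list was between 2.58 (Dp16 5) and 3.09 (WT 2) in the 10 libraries, and between 4.80 (5xFAD 13) and 5.64 (Dp16 14) in the other 6. These values chose the libraries and support nothing further.

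Amyloid-β is cut from the amyloid precursor protein and gathers in extracellular plaques. In mouse models microglia, the resident phagocytes of the brain, crowd around plaques and switch on a gene set that depends on the lipid receptor TREM2 and its adaptor TYROBP, while astrocytes near plaques enlarge and fill with the filament protein GFAP. Because the transgenes are driven from a neuronal promoter and overproduce mutant human proteins, the model is limited as a picture of the slow human disease. The RNA came from whole tissue, so a higher level of a gene can come from more cells of a type or from more RNA in each cell, and these cannot be told apart in these data.

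The 10 libraries held 16922937 to 25308693 counts, with 5.12% to 6.87% from mitochondrial genes. The labels gave 1 female and 3 males among the carriers and 4 females and 2 males among the non-carriers. One carrier lacked Dp16, so 5xFAD 10 and the effect of the transgenes without Dp16 cannot be told apart. Markers of tissue other than thalamus still differed among the 10 libraries. Choroid plexus markers (15 of 15 genes tested) ranged from 0.42 (Dp16 12) to 6.26 (WT 7) in the non-carriers and from 0.63 (5xFAD 10) to 4.96 (5xFAD-Dp16 8) in the carriers, as mean log2 CPM. Meningeal fibroblast markers (14 genes) were between 3.16 and 5.02 in the non-carriers, with WT 7 highest, and between 3.03 and 4.03 in the carriers. Markers of excitatory neurons, the main cells of the hippocampus, were between 9.29 and 9.52 in the non-carriers and between 9.12 and 9.30 in the carriers. None of the 16 was at 0 in any library. Of 9 markers of neutrophils and monocytes 0 passed the filter on low counts, and of 19 of lymphocytes 4 did.

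**Figure D1:**
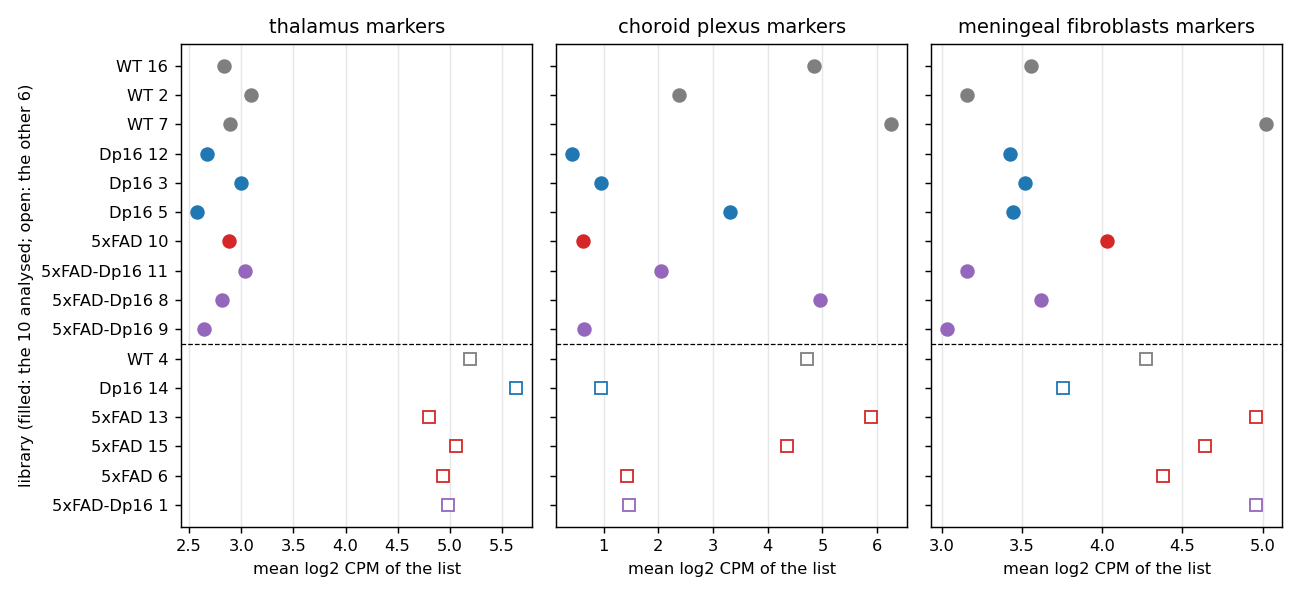
Mean log2 CPM of the thalamus, choroid plexus and meningeal fibroblast marker lists (x axes) in each of the 16 libraries (rows, coloured by group). Filled circles are the 10 libraries analysed and open squares the other 6; the 10 lie between 2.58 and 3.09 for thalamus but between 0.42 and 6.26 for choroid plexus.

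Far more genes rose in carriers than fell, and the rises were much the larger. Of 16284 genes tested with edgeR's quasi-likelihood test, 672 (4.13%) were higher and 126 (0.774%) lower in carriers, 798 (4.90%) in all, at a Benjamini-Hochberg adjusted p below 0.05 over all genes. The median log2 fold change was 0.91 for the genes that rose and -0.26 for those that fell, against 0.0034 over all genes tested. Of the genes that rose 303 did so more than 2-fold and 72 more than 4-fold. The genes that rose had a median level of 10.2 CPM over the 10 libraries, and those that fell 188 CPM. For 534 of the 672 every carrier was above every non-carrier, and for 50 of the 126 every carrier was below every non-carrier. Over all genes the carriers lay wholly above the non-carriers for 4.16% and wholly below for 1.17%. The number that fell was unsteady. It was 36 with sex as a covariate, 32 without Dp16 12, 28 without 5xFAD-Dp16 11 and 371 with DESeq2, whereas the number that rose was 581, 556, 515 and 780.

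**Figure D2:**
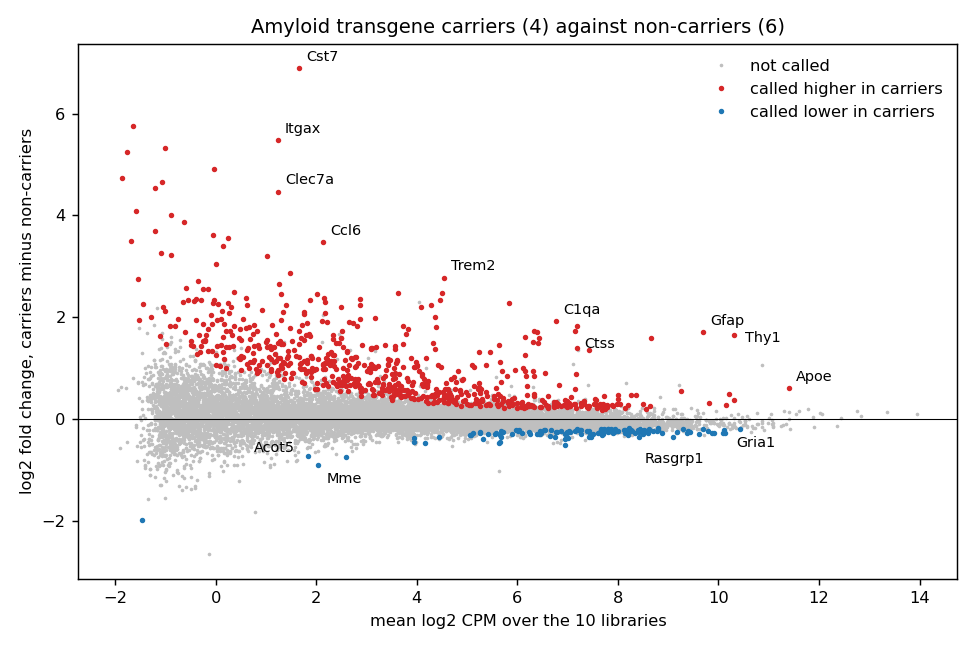
Log2 fold change of carriers against non-carriers (y axis) by mean log2 CPM (x axis) for the 16284 genes tested; each point is a gene. The 672 genes called higher (red) reach a log2 fold change of 6.89 (Cst7) among the genes named here, and most of the 126 called lower (blue) lie close to 0 at high levels.

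Thy1, the neuronal surface protein gene whose promoter sequences drive the transgenes (ENSMUSG00000032011.5, chromosome 9, 44043384 to 44048579, GRCm38), was counted at a higher level in carriers. Thy1 had 769, 682 and 748 CPM in the 3 WT libraries, 904, 843 and 877 in the 3 Dp16 libraries, 2753 in 5xFAD 10 and 2366, 2619 and 2538 in the 3 5xFAD-Dp16 libraries. Every carrier lay above every non-carrier, a 3.14-fold rise (log2 1.65 ± 0.07 SE, adjusted p = 9e-10, edgeR). Whether these reads come from the transgenes or from Thy1 itself was not tested. Mouse App, the precursor gene carried in an extra copy by Dp16 (ENSMUSG00000022892.11, chromosome 16, 84949685 to 85173766), had 1973, 1961 and 1901 CPM in the 3 WT libraries, 3169, 3107 and 3076 in the 3 Dp16 libraries, 1792 in 5xFAD 10 and 2980.1, 2905 and 2739 in the 3 5xFAD-Dp16 libraries. Its level followed the duplication, and within each background the carriers were below the non-carriers by a margin that edgeR did not call (log2 -0.12 ± 0.05 SE, adjusted p = 0.255) and DESeq2 did (log2 -0.13, adjusted p = 0.0315). Of 16 genes of App and its processing 1 rose, Thy1, and 1 fell. The one that fell was Mme, which encodes neprilysin, a protease that degrades amyloid-β (ENSMUSG00000027820.12, chromosome 3, 63241537 to 63386030). Mme had 5.51, 5.52 and 5.49 CPM in the 3 WT libraries, 5.21, 4.6 and 4.74 in the 3 Dp16 libraries, 2.13 in 5xFAD 10 and 3.43, 2.88 and 2.61 in the 3 5xFAD-Dp16 libraries. All 4 carriers were below all 6 non-carriers, at 0.531 of their level after the Dp16 term (log2 -0.91 ± 0.17 SE, adjusted p = 0.00368). The call held without each library in turn, and in the 3 5xFAD-Dp16 against the 3 Dp16 libraries alone it was not made (log2 -0.71, adjusted p = 0.0639).

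Genes that microglia switch on at plaques rose in carriers, 22 of 25 tested, with a median log2 fold change of 2.27, and all 25 fitted changes were positive. The 3 that edgeR did not call were Cd63 (log2 0.65), Lgals3 (1.09) and Fabp5 (0.25); DESeq2 called 23 of the 25, Cd63 among them. Cst7, a cystatin that inhibits lysosomal proteases (ENSMUSG00000068129.5, chromosome 2, 150570415 to 150578944), had 0.299, 0.276 and 0.123 CPM in the 3 WT libraries, 0.318, 0.155 and 2.02 in the 3 Dp16 libraries, 93.6 in 5xFAD 10 and 47.9, 55 and 58.5 in the 3 5xFAD-Dp16 libraries. The lowest carrier was far above the highest non-carrier, and Dp16 12 stood above the other non-carriers. The fitted rise was 119-fold (log2 6.89 ± 0.56 SE, adjusted p = 0.000331). Itgax, the integrin CD11c, had 0.239, 0.598 and 0.41 CPM in the 3 WT libraries, 0.239, 0.62 and 0.991 in the 3 Dp16 libraries, 37.8 in 5xFAD 10 and 14.5, 17.1 and 18.8 in the 3 5xFAD-Dp16 libraries, a rise of 44.3-fold (log2 5.47 ± 0.36 SE, adjusted p = 1.36e-05). Clec7a, the lectin receptor dectin-1, had 0.18 to 2.63 CPM in the non-carriers and 15.3 to 20.5 CPM in the carriers and rose 22.1-fold (log2 4.47 ± 0.59 SE, adjusted p = 0.00401). In the 3 5xFAD-Dp16 against the 3 Dp16 libraries alone Clec7a was not called (adjusted p = 0.0821).

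Trem2, the lipid-sensing receptor on which this state depends (ENSMUSG00000023992.14, chromosome 17, 48346401 to 48354147), had 10.2, 8.98 and 11.9 CPM in the 3 WT libraries, 10.7, 11.5 and 12 in the 3 Dp16 libraries, 97.4 in 5xFAD 10 and 59.4, 62.4 and 74.1 in the 3 5xFAD-Dp16 libraries. The non-carriers kept within a narrow band and 5xFAD 10 was the highest carrier, for a rise of 6.86-fold (log2 2.78 ± 0.13 SE, adjusted p = 7.7e-08). Its signalling adaptor Tyrobp had 9.46 to 13.5 CPM in the non-carriers and 45.6 to 77.1 CPM in the carriers and rose 5.04-fold. The lysosomal protease Ctsz rose 3.05-fold (39.5 to 53.7 CPM in the non-carriers and 121 to 171 CPM in the carriers) and the tetraspanin Cd9 2.38-fold (42.9 to 66.5 CPM in the non-carriers and 99.8 to 134 CPM in the carriers). Cd52, a small surface glycoprotein of leukocytes, rose 7.34-fold (0.948 to 1.68 CPM in the non-carriers and 5.85 to 11.1 CPM in the carriers). Cybb, the NADPH oxidase subunit that makes superoxide, rose 6.28-fold (0.492 to 1.93 CPM in the non-carriers and 5.06 to 11 CPM in the carriers), and of the carriers 5xFAD 10 was the lowest for this gene. The 12 largest rises named were chosen among genes without overlap between carriers and non-carriers. Those outside the list included Ly9, a receptor of the SLAM family (11.7-fold), the heparanase gene Hpse (10.5-fold), the membrane protease gene St14 (9.18-fold) and Bcl3, a cofactor of NF-κB (5.59-fold). Each of the 4 was thus higher in every carrier than in every non-carrier by the way it was chosen.

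Genes of resting microglia rose too, and by less. Of 16 homeostatic microglia genes 14 rose, with a median of 0.92 on the log2 scale, and this count was 14 in each of the 10 fits without 1 library. Csf1r, the growth factor receptor that microglia need to survive, had 111, 112 and 106 CPM in the 3 WT libraries, 105, 123 and 117 in the 3 Dp16 libraries, 212 in 5xFAD 10 and 202, 212 and 212 in the 3 5xFAD-Dp16 libraries. Every carrier exceeded every non-carrier, and the fitted rise was 1.85-fold (log2 0.89 ± 0.05 SE, adjusted p = 3.04e-08). Fcrls rose 2.5-fold (22 to 32.3 CPM in the non-carriers and 56.4 to 84.1 CPM in the carriers) and Siglech, a sialic acid receptor, 2.18-fold (9.66 to 13.7 CPM in the non-carriers and 21.1 to 29.7 CPM in the carriers). Markers that define lymphocytes were at low levels, and 0 of the 4 tested were called by edgeR or DESeq2 or had an unadjusted p below 0.05.

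**Figure D3:**
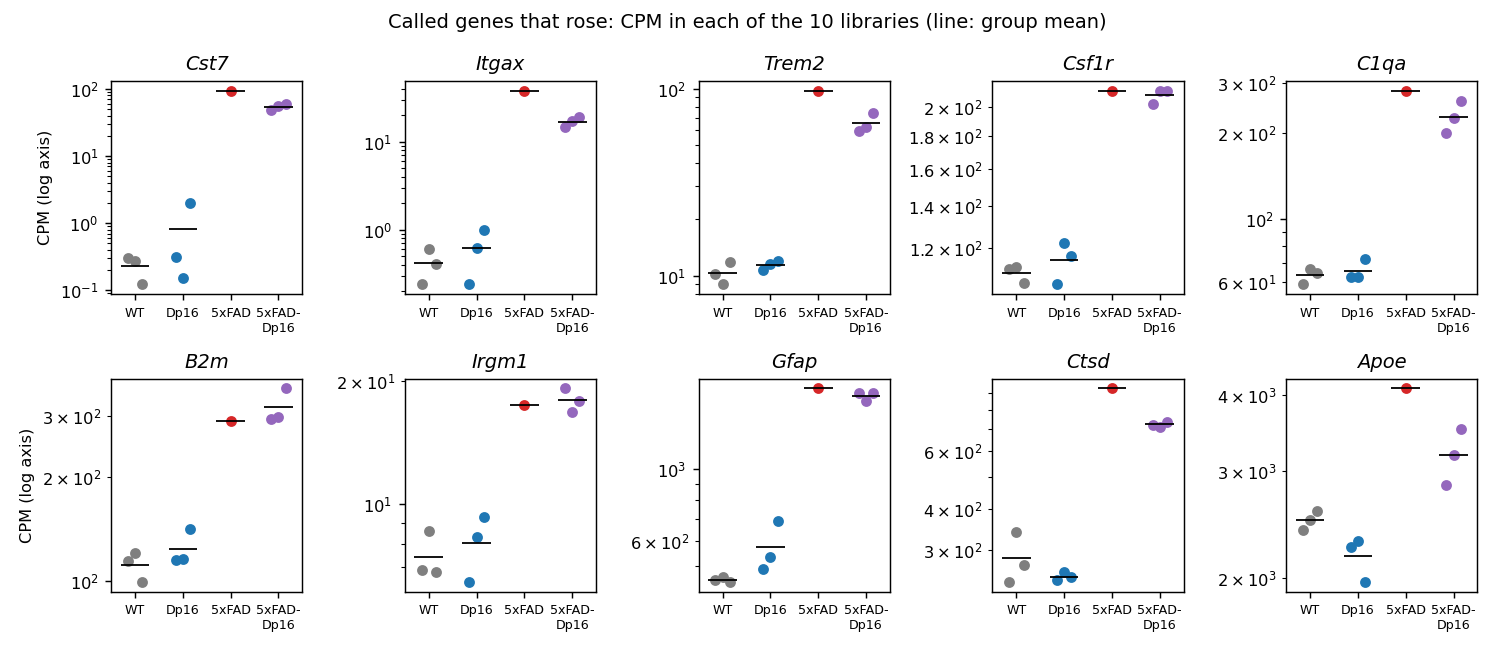
CPM (y axes, log scale) of 10 genes that rose, in each of the 10 libraries by group (x axes); each point is a library and each line a group mean. The 4 carriers lie above the 6 non-carriers in all 10 panels. Dp16 12 is the highest non-carrier for Cst7, Itgax, Trem2, C1qa, B2m, Irgm1 and Gfap, and not for Csf1r, Ctsd and Apoe. The 12 largest rises named were chosen among genes without overlap, which were 534 of the 672 called higher.

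Surface receptors, complement and secreted signals followed. Of 16 Fc and Toll-like receptor genes 11 rose (median log2 fold change 1.43). Fcgr2b, the inhibitory receptor for IgG, rose 5.11-fold (2.38 to 5 CPM in the non-carriers and 16 to 24.5 CPM in the carriers), Fcgr3, an activating one, 2.83-fold (12.2 to 15.7 CPM in the non-carriers and 31.8 to 40.5 CPM in the carriers), and their signalling chain Fcer1g 3.39-fold (7 to 10.9 CPM in the non-carriers and 25.2 to 36.3 CPM in the carriers). Tlr2, a sensor of bacterial lipoproteins, rose 4.72-fold (0.994 to 2.07 CPM in the non-carriers and 5.77 to 6.92 CPM in the carriers). Of 15 complement genes 8 rose (median 1.03). The 3 chains of C1q, which starts the classical pathway, rose together. C1qa had 58.9, 66.7 and 64.5 CPM in the 3 WT libraries, 62.4, 62.4 and 72.2 in the 3 Dp16 libraries, 282 in 5xFAD 10 and 200.1, 225 and 259.9 in the 3 5xFAD-Dp16 libraries, a rise of 3.79-fold (log2 1.92 ± 0.09 SE, adjusted p = 8.22e-09). C1qb rose 3.28-fold and C1qc 3.29-fold. Itgb2, the shared chain of the complement receptors, had 8.04 to 9.15 CPM in the non-carriers and 23.7 to 29.3 CPM in the carriers and rose 3.17-fold. Of 15 chemokine and cytokine genes 9 rose (median 1.19). The chemokine Ccl6 had 0.915 to 3.12 CPM in the non-carriers and 12.3 to 22.4 CPM in the carriers and rose 11.1-fold (log2 3.47 ± 0.21 SE, adjusted p = 7.7e-08). Ccl3, a chemokine that draws leukocytes, was at 0 to 0.345 CPM in the non-carriers, 0 in Dp16 3 among them, and at 4.51 to 8.73 CPM in the carriers. Tgfb1, a cytokine that microglia need and make, rose 2.28-fold (9.14 to 12.2 CPM in the non-carriers and 19.9 to 28.3 CPM in the carriers).

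Antigen presentation genes rose in 15 of 21 cases (median 1.36). B2m, whose protein pairs with every class I heavy chain, had 114, 121 and 99.4 CPM in the 3 WT libraries, 115, 116 and 141 in the 3 Dp16 libraries, 289.7 in 5xFAD 10 and 294, 297 and 359 in the 3 5xFAD-Dp16 libraries, a 2.57-fold rise (log2 1.36 ± 0.08 SE, adjusted p = 4.99e-08), with 5xFAD-Dp16 11 above the other carriers. Ctss, the protease that trims the class II invariant chain, had 80.5 to 94 CPM in the non-carriers and 271 to 325 CPM in the carriers and rose 3.3-fold (log2 1.72 ± 0.07 SE, adjusted p = 2.25e-10). The class I gene H2-T23 rose 2.1-fold (7.34 to 9.34 CPM in the non-carriers and 13.7 to 18.8 CPM in the carriers); class I genes are close paralogs and their reads can be split among them. Nlrc5, the transactivator of class I genes, rose 4.22-fold (0.451 to 0.732 CPM in the non-carriers and 2.05 to 3.19 CPM in the carriers).

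Of 37 interferon response genes 29 rose, with a median of 1.00, and all 37 fitted changes were positive. Without 5xFAD 10 the count was 19, and with sex as a covariate 30. Irgm1, an immunity-related GTPase that guards against intracellular pathogens (ENSMUSG00000046879.7, chromosome 11, 48861968 to 48871683), had 6.88, 8.56 and 6.81 CPM in the 3 WT libraries, 6.44, 8.32 and 9.26 in the 3 Dp16 libraries, 17.4 in 5xFAD 10 and 19.1, 16.8 and 17.8 in the 3 5xFAD-Dp16 libraries. The carriers lay close together and above every non-carrier, a 2.27-fold rise (log2 1.19 ± 0.12 SE, adjusted p = 7.59e-06). Zbp1, a sensor of Z-form nucleic acids, rose 9.56-fold (0.0517 to 0.368 CPM in the non-carriers and 0.802 to 2.13 CPM in the carriers), Trim30a 3.16-fold (1.4 to 3.19 CPM in the non-carriers and 6.24 to 8.72 CPM in the carriers) and the ADP-ribosyltransferase gene Parp14 2.08-fold (3.98 to 5.34 CPM in the non-carriers and 9.08 to 10.5 CPM in the carriers). Ifi204, of a family of DNA sensors with close paralogs, rose 8.25-fold (0.0599 to 1.16 CPM in the non-carriers and 2.64 to 4.45 CPM in the carriers). Ifit3, which helps to block foreign RNA, was at 6.47 to 15.3 CPM in the non-carriers, highest in Dp16 12, and at 18.7 to 26.9 CPM in the carriers (log2 1.38 ± 0.26 SE, adjusted p = 0.0144), and was not called without 5xFAD 10 (adjusted p = 0.0647).

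Interferon signals reach genes through the ISGF3 complex, which binds the interferon-stimulated response element. Its core was searched as GAAA, then any bases NN, then GAAA, on both strands in promoters of 300 bases, 250 before to 50 after the start, from RefSeq (GRCm38.p6). The motif was in 16 of the 29 interferon response genes with a promoter entry (55.2%), in 13 of the 22 of these that rose, and in 3.99% of all 27025 genes with an entry. The list was made of known interferon response genes and other spellings were tried, so these shares describe the list and test nothing about the rise. Promoters of 2 genes that rose are shown, with matches in capitals. The Irgm1 promoter (chr11:48871371-48871670, minus strand, written 5′ to 3′ along the gene) holds 2 overlapping matches, and that of Ifit3 (chr19:34583279-34583578, plus strand) holds 2 on the opposite strand. Ifit3 was chosen for its promoter after its values were seen.
Irgm1: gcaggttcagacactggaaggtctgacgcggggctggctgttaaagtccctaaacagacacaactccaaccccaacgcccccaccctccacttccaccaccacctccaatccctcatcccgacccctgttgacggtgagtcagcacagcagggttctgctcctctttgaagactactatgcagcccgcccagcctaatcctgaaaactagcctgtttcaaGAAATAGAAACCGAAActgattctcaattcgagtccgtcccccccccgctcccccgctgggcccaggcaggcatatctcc
Ifit3: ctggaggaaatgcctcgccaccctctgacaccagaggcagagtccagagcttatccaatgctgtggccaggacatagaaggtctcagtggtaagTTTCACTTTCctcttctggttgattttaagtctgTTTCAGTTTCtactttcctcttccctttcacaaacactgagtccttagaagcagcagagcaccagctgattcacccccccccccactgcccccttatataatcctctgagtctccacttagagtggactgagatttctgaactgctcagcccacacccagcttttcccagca

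Of 22 reactive astrocyte genes 12 rose (median 0.86). Gfap, the filament protein of reactive astrocytes (ENSMUSG00000020932.14, chromosome 11, 102887336 to 102900912), had 452, 462 and 447 CPM in the 3 WT libraries, 490.0, 535 and 690.2 in the 3 Dp16 libraries, 1778 in 5xFAD 10 and 1717, 1621 and 1725 in the 3 5xFAD-Dp16 libraries. The carriers were within a narrow band and well above the non-carriers, of which Dp16 12 was highest; the rise was 3.25-fold (log2 1.70 ± 0.10 SE, adjusted p = 1.49e-07). C4b, a complement component made by astrocytes and oligodendrocytes, had 66.5, 69.6 and 66.4 CPM in the 3 WT libraries, 82.4, 105 and 128 in the 3 Dp16 libraries, 260.4 in 5xFAD 10 and 378, 321 and 374 in the 3 5xFAD-Dp16 libraries and rose 3.55-fold (log2 1.83 ± 0.10 SE, adjusted p = 6.61e-07), with C4a as a close paralog. In both backgrounds the carriers were higher, and the Dp16 non-carriers were all above the WT ones. The protease inhibitor Serpina3n rose 2.83-fold (41.5 to 66.8 CPM in the non-carriers and 134 to 169 CPM in the carriers) and the oncostatin M receptor gene Osmr 2.76-fold (7.75 to 10.9 CPM in the non-carriers and 22.8 to 25.8 CPM in the carriers). Of 16 general astrocyte markers 5 rose (median 0.11). They included the glutamate transporter Slc1a3 (0.31, 748 to 891 CPM in the non-carriers and 941 to 1084 CPM in the carriers), the calcium-binding protein S100b (0.30, 109 to 143 CPM in the non-carriers and 149 to 178 CPM in the carriers), the water channel Aqp4 (0.40, 138 to 194 CPM in the non-carriers and 194 to 240.3 CPM in the carriers) and the glycolytic enzyme Aldoc (0.27, 988 to 1096 CPM in the non-carriers and 1103 to 1338 CPM in the carriers), all as log2 fold changes. Without 5xFAD 10, 1 of the 16 was called. Of the 4 named, Slc1a3 was called without each library in turn, and S100b, Aqp4 and Aldoc lost their calls in 1, 2 and 4 of the 10 such fits.

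Lysosomal genes rose in 19 of 34 cases, with a median of 0.35. Ctsd, the main aspartic protease of lysosomes (ENSMUSG00000007891.16, chromosome 7, 142375911 to 142388038), had 240.2, 340.1 and 270.1 CPM in the 3 WT libraries, 243, 257 and 249 in the 3 Dp16 libraries, 931 in 5xFAD 10 and 722, 712 and 736 in the 3 5xFAD-Dp16 libraries, a 3.02-fold rise (log2 1.60 ± 0.08 SE, adjusted p = 8.81e-09), with 5xFAD 10 the highest carrier and WT 7 the highest non-carrier. Laptm5, a lysosomal membrane protein of blood and microglial cells, rose 3-fold (52.4 to 63.9 CPM in the non-carriers and 149.7 to 196 CPM in the carriers), the mannosidase gene Man2b1 1.94-fold (43.5 to 55.4 CPM in the non-carriers and 81.2 to 104 CPM in the carriers) and the glycosidase gene Hexa 1.93-fold (46.7 to 59.5 CPM in the non-carriers and 102 to 112 CPM in the carriers). Lgmn, the asparaginyl endopeptidase, rose 1.51-fold (108 to 128 CPM in the non-carriers and 172 to 193 CPM in the carriers; log2 0.60 ± 0.06 SE, adjusted p = 6.91e-06). Many lysosomal genes carry the CLEAR element, which the factor TFEB binds. Its core, searched as GTCACGTG on both strands, was in 9 of the 26 lysosome genes with a promoter entry (34.6%), in 6 of the 14 of these that rose, and in 2.55% of all genes with one. The site of PU.1, a factor of microglia, searched as AGGAAGTG on both strands, was in 3 of 21 plaque-associated and 2 of 11 homeostatic microglia genes against 4.68% of all. The shares of both motifs likewise describe the lists and test nothing about the rises. The Ctsd promoter (chr7:142387778-142388077, minus strand) holds 2 matches to the CLEAR core and that of Lgmn (chr12:102439043-102439342, minus strand) holds 1, in capitals. Lgmn was chosen for its promoter after its values were seen.
Ctsd: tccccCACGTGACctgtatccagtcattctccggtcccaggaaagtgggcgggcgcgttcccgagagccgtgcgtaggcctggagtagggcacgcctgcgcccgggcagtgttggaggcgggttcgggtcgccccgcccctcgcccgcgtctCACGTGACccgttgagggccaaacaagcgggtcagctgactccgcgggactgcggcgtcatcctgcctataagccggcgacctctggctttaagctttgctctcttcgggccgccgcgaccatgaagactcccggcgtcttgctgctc
Lgmn: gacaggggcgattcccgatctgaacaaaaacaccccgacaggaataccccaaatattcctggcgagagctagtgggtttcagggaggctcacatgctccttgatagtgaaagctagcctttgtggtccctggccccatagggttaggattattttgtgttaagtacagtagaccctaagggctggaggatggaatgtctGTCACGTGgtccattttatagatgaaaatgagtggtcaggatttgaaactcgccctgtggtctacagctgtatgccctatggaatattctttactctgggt

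Of 15 lipid carrier and scavenger receptor genes 6 rose (median 0.25). Apoe, which carries lipids between brain cells (ENSMUSG00000002985.16, chromosome 7, 19696109 to 19699188), had 2400.1, 2487 and 2579 CPM in the 3 WT libraries, 2242, 2302 and 1966 in the 3 Dp16 libraries, 4105 in 5xFAD 10 and 2844, 3184 and 3517 in the 3 5xFAD-Dp16 libraries. The carriers were all above the non-carriers, a 1.53-fold rise (log2 0.61 ± 0.07 SE, adjusted p = 3.6e-05). The secreted chaperone Clu rose 1.3-fold (1015 to 1313 CPM in the non-carriers and 1361 to 1670.2 CPM in the carriers) and the lipid droplet protein gene Plin2 1.72-fold (4.43 to 6.54 CPM in the non-carriers and 7.85 to 10.5 CPM in the carriers). Lpl, lipoprotein lipase, rose 1.42-fold with overlap between the groups, and its call was lost with sex as a covariate (adjusted p = 0.0532) and without 5xFAD 10 (adjusted p = 0.129). Of 23 genes of cholesterol synthesis 10 rose (median 0.21) and all 23 fitted changes were positive. The sterol transporter Stard4, a target of the same factors, rose 1.51-fold (18.3 to 22.8 CPM in the non-carriers and 29.7 to 34.4 CPM in the carriers), the prenyl synthase gene Fdps 1.44-fold (16.8 to 22.4 CPM in the non-carriers and 23.3 to 32.8 CPM in the carriers), Acat2 1.35-fold (20.6 to 24.5 CPM in the non-carriers and 26.6 to 34.4 CPM in the carriers) and Hmgcs1, which makes HMG-CoA, 1.22-fold (189.7 to 259 CPM in the non-carriers and 262 to 314 CPM in the carriers). The count was 6 with sex as a covariate and 2 without 5xFAD 10, where Fdps and Acat2 were not called (adjusted p = 0.0726 and 0.0948).

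Of 32 orthologs of genes at human Alzheimer risk loci 13 rose and 2, Ptk2b (log2 -0.28) and Sorl1, fell (median 0.29). Besides Trem2 and Apoe, the progranulin gene Grn rose 1.91-fold (57.7 to 64.9 CPM in the non-carriers and 107 to 139 CPM in the carriers), the lipid phosphatase gene Inpp5d 2.28-fold (11.7 to 14.4 CPM in the non-carriers and 26.6 to 36.6 CPM in the carriers) and the microglial adaptor gene Abi3 2.59-fold (5.45 to 7.01 CPM in the non-carriers and 11.9 to 20.5 CPM in the carriers). Sorl1, a sorting receptor that steers App away from cleavage, fell with overlap between the groups (360.1 to 468 CPM in the non-carriers and 293 to 417 CPM in the carriers; log2 -0.27 ± 0.07 SE, adjusted p = 0.0455). Its call was lost with sex as a covariate (adjusted p = 0.182) and in 6 of 10 fits without 1 library.

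The neuronal genes that fell did so by small amounts. Rasgrp1, a calcium-sensitive activator of Ras in neurons (ENSMUSG00000027347.18, chromosome 2, 117279993 to 117343001), had 552, 575 and 559 CPM in the 3 WT libraries, 585, 648 and 673 in the 3 Dp16 libraries, 397 in 5xFAD 10 and 549, 531 and 473 in the 3 5xFAD-Dp16 libraries. The carriers were lower in both backgrounds, and 5xFAD 10 was the lowest of all (log2 -0.36 ± 0.06 SE, adjusted p = 0.00211). Nr3c2, the mineralocorticoid receptor (ENSMUSG00000031618.13, chromosome 8, 76899442 to 77245012), had 192, 187 and 176 CPM in the 3 WT libraries, 192, 205 and 209.8 in the 3 Dp16 libraries, 145 in 5xFAD 10 and 172, 168 and 137 in the 3 5xFAD-Dp16 libraries (log2 -0.35 ± 0.07 SE, adjusted p = 0.0039). Both calls held without each library in turn and with sex as a covariate (adjusted p = 0.0129 and 0.0137). Of 23 activity-regulated genes 3 fell (median -0.27) and 21 fitted changes were negative. Nr4a1, an early nuclear receptor, had 49.2, 54.9 and 69.5 CPM in the 3 WT libraries, 60.0, 57.7 and 54.7 in the 3 Dp16 libraries, 42.7 in 5xFAD 10 and 39.7, 40.4 and 45.2 in the 3 5xFAD-Dp16 libraries, with every carrier below every non-carrier (log2 -0.45 ± 0.09 SE, adjusted p = 0.00422). Egr4 had 33.3 to 43.9 CPM in the non-carriers and 27.3 to 30.3 CPM in the carriers (log2 -0.32), and Egr3 had 116 to 149 CPM in the non-carriers and 101 to 128 CPM in the carriers (log2 -0.29) and was not called with sex as a covariate (adjusted p = 0.136). The call of Nr4a1 held without each library in turn, while Egr4 lost its call in 6 and Egr3 in 8 of the 10 such fits.

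Of 12 dentate gyrus granule cell genes 3 fell (median -0.28). Prox1, the factor that fixes granule cell identity (ENSMUSG00000010175.13, chromosome 1, 190118035 to 190170714), had 132, 121 and 108 CPM in the 3 WT libraries, 103, 136 and 114 in the 3 Dp16 libraries, 97 in 5xFAD 10 and 91.6, 92.6 and 85.7 in the 3 5xFAD-Dp16 libraries (log2 -0.36 ± 0.08 SE, adjusted p = 0.012). Every carrier was below every non-carrier, and the call held without each library in turn. The channel gene Trpc6 (15.1 to 18.7 CPM in the non-carriers and 11.4 to 14.8 CPM in the carriers, log2 -0.38) and the desmosome gene Dsp (54.8 to 75.5 CPM in the non-carriers and 48.4 to 55.2 CPM in the carriers, log2 -0.29) fell as well. With sex as a covariate 0 of the 12 were called by edgeR, with adjusted p = 0.0739, 0.0902 and 0.174 in that order, whereas DESeq2 without that covariate called 4. Trpc6 lost its call in 4 and Dsp in 7 of the 10 fits without 1 library. Of 12 CA1 and CA3 pyramidal cell genes 0 were called by edgeR, and DESeq2 called 1, Fibcd1. Of these 12 genes 6 had an unadjusted p below 0.05 by edgeR, against 2692 of all 16284 genes tested. All 12 fitted changes were negative (median -0.15), and Fibcd1 had 148 to 217 CPM in the non-carriers and 104 to 172 CPM in the carriers (log2 -0.42).

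Excitatory neuron genes had negative fitted changes in all 16 cases (median -0.20), and 4 fell. These were the AMPA receptor subunits Gria1 and Gria2, the NMDA receptor subunit Grin2b and Chn1, a Rac regulator. Gria1 had 1158, 1133 and 1123 CPM in the 3 WT libraries, 1185, 1290.0 and 1366 in the 3 Dp16 libraries, 1015 in 5xFAD 10 and 1093, 1097 and 869.6 in the 3 5xFAD-Dp16 libraries (log2 -0.27 ± 0.07 SE, adjusted p = 0.0405). The carriers were all below the non-carriers. Gria2 stood at -0.23, Grin2b at -0.25 and Chn1 at -0.21 on the log2 scale. With sex as a covariate none of the 16 was called by edgeR (adjusted p = 0.0756, 0.16, 0.153 and 0.0674 for the 4 in this order), and DESeq2 without it called 9. When each library was left out in turn, the call was lost in 6 of 10 fits for Gria1, 5 for Gria2, 5 for Grin2b and 9 for Chn1. Of 16 inhibitory neuron genes 2 fell, Gad1, which makes GABA (267 to 311 CPM in the non-carriers and 245 to 266 CPM in the carriers, log2 -0.21), and the potassium channel gene Kcnc2 (91.5 to 102 CPM in the non-carriers and 78.2 to 89.3 CPM in the carriers, log2 -0.21), lost in 5 and 9 such fits. Of 30 synaptic protein genes 27 fitted changes were negative (median -0.10), and the one called, the presynaptic scaffold gene Rims1, rose (193 to 233 CPM in the non-carriers and 238 to 284 CPM in the carriers, log2 0.28) and lost its call in 5.

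Other falls among the 12 largest without overlap between the groups were Acot5, a peroxisomal thioesterase (3.53 to 5.27 CPM in the non-carriers and 1.91 to 3.4 CPM in the carriers), Lrrc10b (46.6 to 65 CPM in the non-carriers and 37.8 to 45.8 CPM in the carriers), the ephrin receptor Epha7 (131 to 152 CPM in the non-carriers and 93.7 to 123 CPM in the carriers), the semaphorin Sema5a (119 to 163 CPM in the non-carriers and 98.1 to 115 CPM in the carriers) and the scaffold Iqgap2 (96.7 to 121 CPM in the non-carriers and 80.8 to 95.8 CPM in the carriers). Of these 5, Epha7 was called with sex as a covariate (adjusted p = 0.0135). Acot5, Lrrc10b, Sema5a and Iqgap2 were not, at adjusted p = 0.0895, 0.0548, 0.0745 and 0.0745. Without 5xFAD 10 none of the 5 was called, Epha7 at adjusted p = 0.0564. Markers of excitatory neurons summed to 16440 to 19137 CPM in the non-carriers and to 14734 to 16794 CPM in the carriers, and the part of cell content in the falls was not tested.

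**Figure D4:**
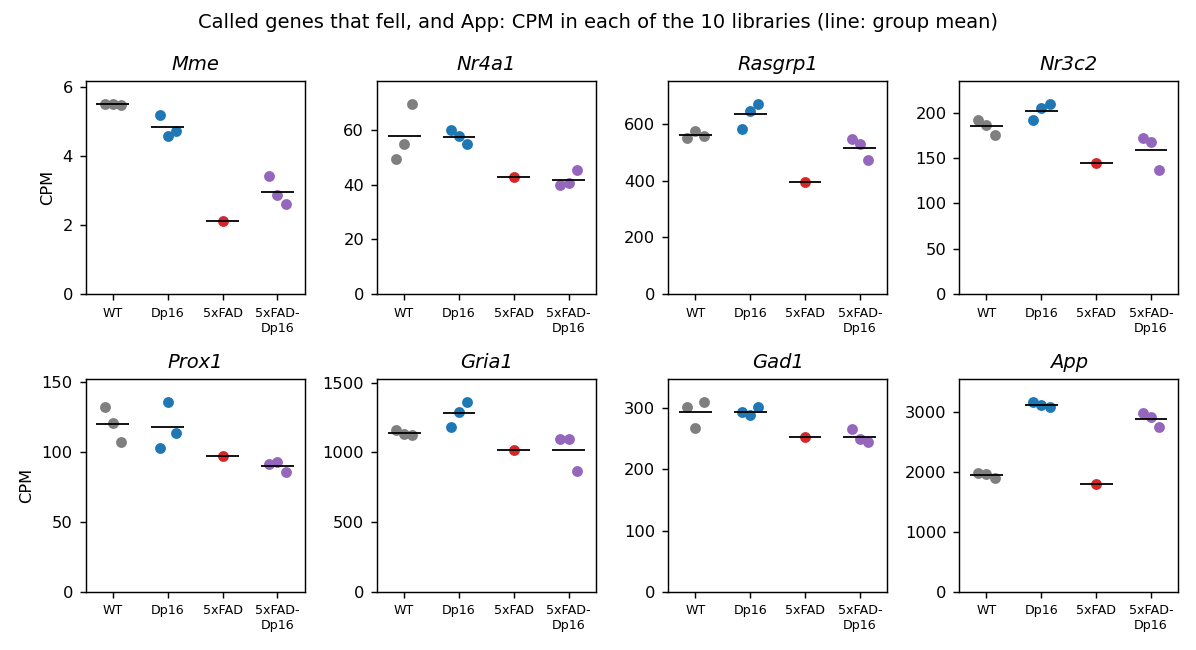
CPM (y axes, from 0) of 7 genes that fell and of App, in each of the 10 libraries by group (x axes); each point is a library and each line a group mean. For the 7 the carriers lie below the non-carriers, while App separates by Dp16, with all libraries without it below all libraries with it. The largest falls named were chosen among genes without overlap. Such genes were 50 of the 126 called lower, so the 7 do not stand for all falls.

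Genes of several other cell types and processes gave no call. In 15 lists with 184 tested genes, among them oligodendrocytes, their precursors, endothelial cells, meninges, choroid plexus, ependyma, thalamus, striatum, neocortex, blood, heat shock and oxidative phosphorylation, 0 genes were called by edgeR. Of these 184 genes 22 had an unadjusted p below 0.05 by edgeR, against 2692 of all 16284 genes tested. DESeq2 called 3, all lower (Hsp90aa1, Atp5a1 and Fibcd1). Choroid plexus genes had a median of 0.39, which ran from -2.06 to 1.71 when single libraries were left out. Trf, the transferrin gene of oligodendrocytes, had 387, 450.4 and 383 CPM in the 3 WT libraries, 402, 448 and 356 in the 3 Dp16 libraries, 375 in 5xFAD 10 and 719, 562 and 633 in the 3 5xFAD-Dp16 libraries. The 3 5xFAD-Dp16 libraries were above all others and 5xFAD 10 was not, and Trf was not called in the 10 libraries (log2 0.42 ± 0.16 SE, adjusted p = 0.217) but was without 5xFAD 10 (log2 0.66, adjusted p = 0.00295). The tight junction gene Cldn11, of myelin, had the same order, with 145, 141 and 139.7 CPM in the 3 WT libraries, 134, 149.7 and 109 in the 3 Dp16 libraries, 126 in 5xFAD 10 and 204, 177 and 199.6 in the 3 5xFAD-Dp16 libraries (adjusted p = 0.00451 without 5xFAD 10). Mural cells, the unfolded protein response and cell division gave 1 call each, all higher. They were Notch3 (18.8 to 23.3 CPM in the non-carriers and 21.8 to 36.6 CPM in the carriers), Edem1 (16.2 to 19 CPM in the non-carriers and 21.2 to 24.4 CPM in the carriers) and Top2a (0.199 to 0.818 CPM in the non-carriers and 1.26 to 1.65 CPM in the carriers). Notch3 and Top2a lost their calls without 5xFAD 10 (adjusted p = 0.0762 and 0.0627).

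The same contrast in the 6 libraries outside the set, which are other animals, was fitted as well. They are 4 carriers (5xFAD 6, 13 and 15 and 5xFAD-Dp16 1) and 2 non-carriers (WT 4 and Dp16 14), with 3 females among the carriers and 0 among the non-carriers. Tissue markers were not matched in the 6. As mean log2 CPM, thalamus markers were at 4.80 to 5.06 in the carriers and 5.20 to 5.64 in the non-carriers, excitatory neuron markers at 7.97 to 8.84 and 8.87 to 8.93, and meningeal fibroblast markers at 4.38 to 4.96 and 3.76 to 4.27, without overlap in each case. The part of tissue content in the values of the 6 was not tested. Fitted with all 16 libraries, 545 of 16126 genes were called between carriers and non-carriers there (3.38%), 507 higher (3.14%) and 38 lower (0.236%). Carrier status, sex and tissue content cannot be told apart in these calls. The number lower was 0 of 203 with the 6 fitted alone, 1 of 149 without WT 4, 5 of 223 without Dp16 14, 137 of 555 without 5xFAD-Dp16 1, 141 of 749 without 5xFAD 15 and 201 of 838 with DESeq2. With the 6 fitted alone, a fit added after seeing the data, 670 of the 672 genes that rose in the 10 libraries had a value. It was positive for 665 (99.3%), with a median of 1.04 against 0.90 in the 10. Of the 126 that fell, 125 had a value in that fit, negative for 120 (96%), with a median of -0.29 against -0.26. Over all genes 50.3% were negative in that fit. The difference of the effect between the 10 and the 6 libraries was called for 0 of 16126 genes by edgeR and for 3 by DESeq2, and 395 had an unadjusted p below 0.05. The gene of smallest p was Pomc, a precursor of pituitary and hypothalamic hormones (log2 difference -4.14 ± 0.81 SE, unadjusted p = 0.000151, edgeR). Pomc had 1.29 to 1.66 CPM in the carriers of the 10 and 4.86 to 30.5 CPM in those of the 6. The non-carriers had 0.907 to 3.34 CPM in the 10, and 1.30 (WT 4) and 0.678 (Dp16 14) in the 6. The part of tissue content in this difference was not tested.

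Medians of the immune lists, for the 6 from the fit of all 16 libraries, were higher in the 6 libraries than in the 10. They were 2.80 and 2.27 for plaque-associated microglia, 1.74 and 1.03 for complement, 1.35 and 1.00 for the interferon response and 1.22 and 0.86 for reactive astrocytes. Cholesterol synthesis had the opposite order, 0.13 against 0.21, with 0 of 23 genes called in the 6 by edgeR. Dentate gyrus granule cell genes stood at -0.06 in the 6 and -0.28 in the 10, and activity-regulated genes at -0.13 and -0.27. Newborn neuron genes stood at -0.01 and -0.04. The other 4 neuronal lists were lower in the 6, at -0.27 against -0.08 for inhibitory neurons, -0.26 against -0.20 for excitatory neurons, -0.22 against -0.15 for CA1 and CA3 pyramidal cells and -0.17 against -0.10 for synaptic proteins. Nr4a1 and Prox1 had log2 values of 0.10 ± 0.16 SE and -0.05 ± 0.19 SE in the 6. The 6 libraries also differ from the 10 in thalamus markers, in sex and in the share with Dp16, and the part of each in these gaps was not tested.

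**Figure D5:**
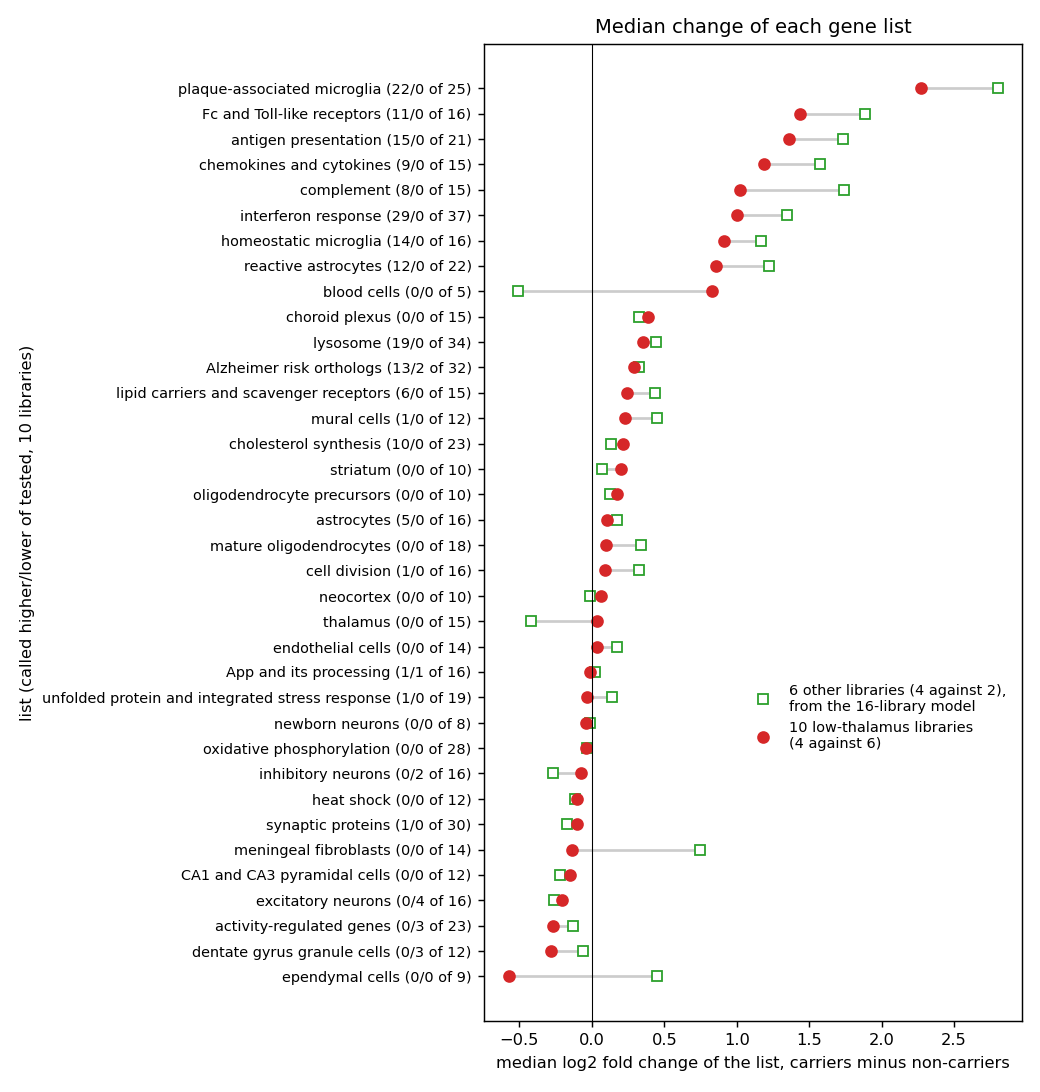
Median log2 fold change of carriers against non-carriers (x axis) for each gene list with at least 5 genes tested (rows, with the numbers called higher and lower). Filled circles are the 10 libraries and open squares the other 6; the lists of microglia, complement, interferon and antigen presentation are at 0.92 or more in the 10 and higher in the 6.

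The 4 carriers were not alike. Over the genes that rose, the median log2 ratio to the non-carrier mean was 0.84 in 5xFAD 10, 0.70, 0.68 and 0.82 in 5xFAD-Dp16 8, 9 and 11, and between -0.07 and 0.07 in the non-carriers. Over the genes that fell it was -0.31, -0.16, -0.15 and -0.31 in the same carriers. The libraries with the larger rises thus had the larger falls. These genes were chosen on the same values, so the medians describe and test nothing. 5xFAD 10 was the highest carrier for 23 of the 25 plaque-associated microglia genes, for 19 of 34 lysosome genes (55.9%) and for 10 of 37 interferon genes (27%). It was the highest carrier for 30.9% of all genes tested and for 50.9% of the 672 that rose, a share near that of the lysosome genes. The median of the plaque list was 2.59 for 5xFAD 10 against WT and 1.85 for 5xFAD-Dp16 against Dp16.

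A test of the difference between the 2 backgrounds called 14 of 16284 genes (0.0860%), 3 higher (0.0184%) and 11 lower (0.0676%) with Dp16, and 1940 had an unadjusted p below 0.05. It rests on 5xFAD 10, the 1 carrier without Dp16, whose spread was assumed equal to that of the other groups, and no gene of the plaque-associated microglia list was among the 14 (Cst7 adjusted p = 0.448, Itgax 0.291, Trem2 0.154, edgeR). AW551984, a predicted gene, had 6.47, 4 and 4.22 CPM in the 3 WT libraries, 8.07, 6.05 and 6.38 in the 3 Dp16 libraries, 21.6 in 5xFAD 10 and 4.38, 4.39 and 4.04 in the 3 5xFAD-Dp16 libraries. The library 5xFAD 10 stood alone at the top. Hap1, a huntingtin-associated trafficking protein, had 158, 123 and 162 CPM in the 3 WT libraries, 146, 146 and 147 in the 3 Dp16 libraries, 305 in 5xFAD 10 and 117, 131 and 119 in the 3 5xFAD-Dp16 libraries, again with 5xFAD 10 alone above the rest. The cadherin Cdh4 (32.7 CPM), the myosin Myh7 (35.8 CPM) and the Notch ligand homolog Dlk1 (43.1 CPM) were also highest in 5xFAD 10, and Pls1, an actin-bundling protein, was lowest there (6.84 CPM). With the non-robust dispersion 5 genes were called, without Dp16 12 5, and with DESeq2 185.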

How the data were processed

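The authors deposited whole-number counts per gene and RPKM values for each of the 16 libraries. Alignment and counting are not assigned to tools in the sources used here; HISAT2 (2.1.0), HTSeq (0.6.1) and SAMtools (1.5) are listed, with build GRCm38, per the submitters' processing notes. Whether counting used strand, and how reads matching several places were treated, is not given in the sources used here. The deposited RPKM values equal count over library total and gene length, with a largest relative deviation of 3.77e-15. Libraries were grouped by their titles, and the 10 by the thalamus rule.

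Counts were tested with edgeR 4.0.16 in R 4.3.3 (TMM scaling, filterByExpr with a minimum count of 10, robust quasi-likelihood, terms for the transgenes and Dp16), which left 16284 of 55385 genes. A gene was called at a Benjamini-Hochberg adjusted p below 0.05. The SE is the log2 fold change over the root of the F statistic, and fold is corrected for Dp16. The 6 other libraries and the difference from them came from a fit of all 16. The signs and medians in the 6 of the genes called in the 10 came from the 6 fitted alone. Alternatives were DESeq2 1.42.0, limma 3.58.1 on log2(RPKM + 0.1 or 1), other scalings, filters and covariates, and leaving out each library. 3 alternatives were added after seeing the data: without the 3 libraries of highest choroid plexus score, with sex and that score together, and the 6 other libraries alone. The labels describe separate mice. No pair of libraries within a group differed by less than sampling noise (lowest chi-square per gene 6.61). Pairs across groups were not checked. The procedure was tested on simulated data.

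The members and the 38 gene lists were chosen with earlier results of these data known. Named genes were the 12 largest rises and falls without overlap, up to 4 called genes of smallest p per list, and genes of the model. Ifit3 and Lgmn, and genes named to complete a count of 5 or fewer (such as Cd63, Lgals3, Fabp5 and Ptk2b), were chosen after their values were seen. Other motif spellings were tried before the 3 reported were kept. Some genes are not reported here.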

Additional observations from a re-analysis of the deposited data

Results flagged for a closer look

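Among 198 groups of 4 or 6 libraries checked for a library far from the others, 21 held one; chance alone gives about 5%. Among the carriers, 5xFAD 10 stood above the other 3 for Hpse (7.59 CPM against 2.82 to 2.97), Fcrls (84.1 against 56.4 to 61.0), Ctsd (931 against 712 to 736) and Clu (1670.2 against 1361 to 1378). The library 5xFAD-Dp16 8 stood below the others for Csf1r (202 against 212 to 212 CPM) and Aldoc (1103 against 1307 to 1338), and 5xFAD-Dp16 11 above them for B2m (359 against 290 to 297).

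Among the non-carriers, Dp16 12 stood above the other 5 for Cst7 (2.02 CPM against 0.123 to 0.318), Clec7a (2.63 against 0.180 to 0.656), Ifi204 (1.16 against 0.0599 to 0.414), Fcgr3 (15.7 against 12.2 to 13.2), Gfap (690.2 against 447 to 535) and Ifit3 (15.3 against 6.47 to 7.40), and below them for Cldn11 (109 against 134 to 150). WT 7 stood above for Bcl3 (1.01 against 0.437 to 0.620), Ctsd (340.1 against 240 to 270) and the meningeal fibroblast score (4.99 against 3.12 to 3.52 mean log2 CPM, scaled within the 10 libraries). WT 16 stood above for Abi3 (7.01 against 5.45 to 5.90) and Egr4 (43.9 against 33.3 to 36.4). WT 2 stood below for Lgmn (108 against 121 to 128) and Dp16 3 for the homeostatic microglia score (5.03 against 5.24 to 5.37).

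The effect of the transgenes differed between the backgrounds, by the interaction term in edgeR, for 14 genes. The log2 difference, with Dp16 minus without, was -2.83 for AW551984, -1.31 for Hap1, -1.46 for Myh7, -1.36 for Cdh4, -1.47 for Dlk1, 1.45 for Pls1, -0.68 for Scg2 and 1.22 for Zcchc7. It was -0.79 for Lypd1, 1.21 for Malat1, -2.06 for Esr1, -0.88 for Trp53i11, -0.83 for Cdh13 and -0.88 for Hpcal1. All rest on 5xFAD 10 as the single carrier without Dp16, and background and library cannot be told apart.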

How the results depend on the processing

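The 672 rises and 126 falls kept their sign for each gene with sex as a covariate, where 536 and 32 were still called. The number of falls was 371 with DESeq2, 275 with no filter on low counts, 36 with sex, 73 with limma on RPKM at either pseudocount, 73 with the thalamus score, 44 with no Dp16 term and 63 with sex and choroid plexus score together. With all 16 libraries it was 365, with 1122 rises and 1487 calls in all; with a term for thalamus class it was 303 of 1293. Leaving out single libraries gave 543 (without 5xFAD-Dp16 11) to 860 (without WT 7) calls, 515 to 737 rises and 28 to 135 falls. The effect in the 6 other libraries was called for 838 genes with DESeq2, 304 with sex, 203 in the 6 alone, and 149 (without WT 4) to 749 (without 5xFAD 15) with single libraries left out. The difference between the 10 and the 6 gave 3 calls with DESeq2 and 0 to 1 (without 5xFAD 13) with libraries left out. The difference by Dp16 background gave 185 with DESeq2, 391 with no filter, 5 with non-robust dispersion and 5 (without Dp16 12) to 23 (without WT 16) with libraries left out; without 5xFAD 10 it could not be fitted. The cause of these shifts was not tested. App, called lower by DESeq2 (adjusted p = 0.0315) and not by edgeR, had a log2 fold change of 0.041 with no Dp16 term. For the 87 called genes named, 246 of the alternative values lost the call and 2014 kept it. No paired analysis was possible because each title number occurs once, so no number is shared between groups. The precision is limited by 4 carriers, 1 of them without Dp16.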

Other observations

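Median fitted changes of choroid plexus and oligodendrocyte genes had opposite signs in the 2 backgrounds. The only carrier without Dp16 was 5xFAD 10, so background and library cannot be told apart. For choroid plexus the median log2 difference was -4.47 for 5xFAD 10 against WT and 1.72 for 5xFAD-Dp16 against Dp16, and for mature oligodendrocytes it was -0.42 and 0.31. Choroid plexus markers were uneven within the groups. Their mean log2 CPM was 6.26 in WT 7, 4.85 in WT 16 and 2.38 in WT 2. It was 4.96 in 5xFAD-Dp16 8, and 0.63 and 2.04 in 5xFAD-Dp16 9 and 11. The part of this unevenness in the choroid plexus medians was not tested. Neither list had a called gene in the 10 libraries by edgeR. With the choroid plexus score as a covariate, 2 of 18 oligodendrocyte genes were called higher and 1 of 15 choroid plexus genes lower. The score is the mean of those same 15 genes, so the choroid plexus count does not test their change.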
